A study of Mus musculus with 6 samples.

Results

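The 10 genes described here encode classical microtubule-associated proteins (MAPs): the axonal forms Mapt (tau) and Map1b, the dendritic forms Map2 and Map1a, the migratory forms Dcx, Dclk1 and Dclk2, and the stabilising or general forms Map4, Map6 and Map7. They were chosen by name, by matching the Ensembl identifiers of the deposited count tables to these symbols, and all 10 of 10 were matched among 41388 genes in all. RNA came from EGFP-positive cells of dorsal root ganglia (DRG, spinal levels T11 to S1), sorted by flow cytometry from C57BL/6 embryos at 18.5 dpc (days post coitum). The genotype is labelled Tg(Ret-EGFP)SJ, a reporter of the receptor tyrosine kinase gene Ret, while the series text calls the animals heterozygotes with EGFP placed in the Ret locus itself, and which of the descriptions holds was not settled here. All 6 libraries share this reporter, and no EGFP-negative cells were analysed here. Female A was a pool of 60 ganglia from 3 embryos of 2 mothers, and female B and female C were each 20 ganglia of 1 embryo. Male A was a pool of 60 ganglia from 3 embryos, male C was 40 ganglia from 2 embryos of 2 mothers, and male D was 40 ganglia from 2 embryos. Female B and female C are described in a second form of sample record and are called record set 2 here, and the other 4 libraries are called record set 1.

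Microtubules are hollow polymers of tubulin that carry transport along nerve processes, and MAPs bind their lattice and set how stable and how bundled they are. In brain neurons, Mapt is sorted to axons and Map2 to dendrites, Map1b is made early and is abundant in growing axons, and Map1a becomes prominent later. Dcx (doublecortin) and its relatives Dclk1 and Dclk2, which also carry a protein kinase domain, mark migrating and immature neurons of the brain. Map4 is found in most cell types, Map6 protects microtubules against cold and drugs, and Map7 recruits the motor kinesin-1 and is known in DRG neurons for its place at axon branches. A DRG sensory neuron has 1 axon that splits into a peripheral and a central branch and has no dendrites, which makes the levels of the dendritic forms a question of their own in this tissue.

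Promoter windows, reaching from upstream of the start to just past it, are shown for Map2, Dcx, Dclk1 and Map1b. They are the 4 genes that were lowest by fraction in library male A (described below). On the log2 scale used there, all 4 stood above their means over the libraries in female B, female C and male D. In female A and male C their directions differed. The windows are from RefSeq on GRCm38.p6 and cover 8 of the 10 genes; Mapt and Map6 are named only. Capitals mark the GC box GGGCGG and the TATA box TATAAA, each searched on both strands, and neither motif overlaps the other. The windows are chr1:66175079-66175378 (plus strand) for Map2, chrX:143933170-143933469 (minus strand) for Dcx, chr3:55242114-55242413 (plus strand) for Dclk1 and chr13:99516553-99516852 (minus strand) for Map1b, each printed in the direction of its gene.
Map2 promoter: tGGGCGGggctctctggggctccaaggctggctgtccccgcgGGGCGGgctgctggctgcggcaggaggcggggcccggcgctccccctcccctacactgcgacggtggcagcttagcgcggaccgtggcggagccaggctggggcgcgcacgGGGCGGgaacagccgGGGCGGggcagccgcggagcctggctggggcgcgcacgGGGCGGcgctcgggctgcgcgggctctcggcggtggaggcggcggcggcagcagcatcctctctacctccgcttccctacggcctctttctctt
Dcx promoter: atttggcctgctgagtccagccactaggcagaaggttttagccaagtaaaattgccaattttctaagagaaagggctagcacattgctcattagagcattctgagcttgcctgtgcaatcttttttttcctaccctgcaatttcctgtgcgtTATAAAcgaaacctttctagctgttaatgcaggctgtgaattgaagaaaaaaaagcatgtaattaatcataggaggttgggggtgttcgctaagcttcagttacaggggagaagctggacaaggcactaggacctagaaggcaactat
Dclk1 promoter: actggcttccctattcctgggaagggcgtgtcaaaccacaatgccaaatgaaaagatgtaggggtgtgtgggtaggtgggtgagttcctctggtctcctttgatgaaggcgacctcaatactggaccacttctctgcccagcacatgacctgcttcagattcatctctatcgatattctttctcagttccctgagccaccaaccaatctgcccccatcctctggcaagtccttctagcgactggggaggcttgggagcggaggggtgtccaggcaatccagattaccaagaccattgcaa
Map1b promoter: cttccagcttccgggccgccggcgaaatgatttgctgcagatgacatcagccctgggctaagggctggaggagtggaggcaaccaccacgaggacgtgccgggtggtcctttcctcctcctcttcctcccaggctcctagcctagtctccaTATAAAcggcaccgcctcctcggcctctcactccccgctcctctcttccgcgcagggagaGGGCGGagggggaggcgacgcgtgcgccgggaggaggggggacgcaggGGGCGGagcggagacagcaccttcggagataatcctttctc
These 4 windows differ from each other. The Map2 window held 5 GC boxes and 37 CG dinucleotides, the Map1b window 2 GC boxes, 1 TATA box and 23 CG dinucleotides, the Dcx window 1 TATA box and 3 CG dinucleotides, and the Dclk1 window neither box and 5 CG dinucleotides. Of 32851 windows of the same length in the table, 35.7% held a GC box and 13.6% a TATA box, and the median window held 7 CG dinucleotides. Dclk1 has a further start among these windows, inside the gene, whose window begins at base 55461478 of chromosome 3. Dcx also has a further window, from base 143933075 to 143933374 of chromosome X, which overlaps the one printed. For each of these genes the counts join the RNA of both starts.

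The libraries held 17861500 to 29330101 counts on genes, and each of the 10 genes had between 210 and 207724 counts in every library, so none was limited by depth. Levels are given as RPKM, counts scaled to the library total and divided by the summed exon length in kilobases, with library totals adjusted by TMM, a factor that keeps a few dominant genes from setting the scale. Of the neuron markers, Stmn2 averaged 5300 ± 791 CPM (counts scaled to the library total, without the length) and Tubb3 4468 ± 1029 CPM (SD, n = 6), so neuronal RNA was plain in all libraries. Of the labelled males, male C stood apart in the X-inactivation RNA Xist, with 197, 112 and 131 CPM in female A, B and C, against 0.418, 58.9 and 0.576 CPM in male A, C and D. Male A stood apart in markers of other cells. Summed markers of satellite glia and Schwann cells came to 4435 CPM in male A, against 1775 to 2216 CPM in the other 5 libraries, with 10 of 12 genes highest in male A. Summed fibroblast markers came to 2882 CPM in male A, against 576 to 678 CPM, with 7 of 8 genes highest there, and endothelial and pericyte markers to 105 CPM, against 43.5 to 83.0 CPM, with 8 of 9. Macrophage markers summed to 4.50 CPM in male A, against 1.23 to 2.83 CPM, with Csf1r and C1qa at 0 in at least 1 library, and erythroid markers to 14.2 CPM, against 10.3 to 56.0 CPM. The leading markers of these lists averaged 735 CPM (Pmp22) and 450 CPM (Fabp7) for glia, 303 CPM (Dcn) and 210 CPM (Col1a2) for fibroblasts, 32.9 CPM (Rgs5) and 26.4 CPM (Pdgfrb) for vessels, 0.733 CPM (C1qb) and 0.644 CPM (Lyz2) for macrophages, and 17.2 CPM (Hbb-bs) and 6.02 CPM (Hbb-bt) for red cells. Summed neuron markers were 15877 CPM in male A, against 17017 to 23179 CPM, with 9 of 12 genes lowest and 1 highest in male A. In such bulk samples, fewer cells of a type and less RNA per cell cannot be told apart. Some results of the 10 genes are also given without male A, and their female against male fits also without male C. The shares by role, most ratios, and the fits of markers and of other microtubule genes are given over all libraries only.

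Axonal forms led the family. Map1b (ENSMUSG00000052727, chromosome 13, 99421464 to 99516602, minus strand, exon length 11852 bp) stood at 638, 927 and 718 RPKM in female A, B and C, against 371, 555 and 807 RPKM in male A, C and D. It was the highest of the 10 genes in 6 of 6 libraries, and the sexes overlapped. Its mean of 669 ± 195 RPKM (SD, n = 6) put it at rank 49 of the 14958 genes tested, within the top 0.328%, and it alone took 0.470% to 1.01% of all counts of a library. Mapt (ENSMUSG00000018411, chromosome 11, 104231390 to 104332090, plus strand, 7531 bp), the tau gene, had 128, 108 and 132 RPKM in the females A, B and C, against 85.5, 129 and 98.7 RPKM in the males A, C and D. Mapt was second in 6 of 6 libraries, with a mean of 114 ± 19.1 RPKM and rank 560, the top 3.74%. Its coefficient of variation (CV, SD over mean) was 16.8%, below the median of 25.3% over all genes tested, while that of Map1b was 29.2%. Without male A the CV was 12.5% for Mapt and 19.8% for Map1b, both below the median of 20.2% over the genes tested.

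Dendritic forms lay far lower. Map1a (ENSMUSG00000027254, chromosome 2, 121289600 to 121310832, plus strand, 12166 bp), the adult counterpart of Map1b, had 10.9, 17.2 and 16.2 RPKM in female A, B and C, against 12.0, 10.6 and 10.6 RPKM in male A, C and D. Both libraries of record set 2 exceeded the other 4, which lay between 10.6 and 12.0 RPKM, so that female A fell within the range of the males. Its mean was 12.9 ± 2.98 RPKM (SD, n = 6), with a CV of 23.1%. Exons of Map1a share 272 bp with Ppip5k1 on the opposite strand, and the sources used here do not say whether counting used strand, so reads of that stretch may belong to either gene. Map2 (ENSMUSG00000015222, chromosome 1, 66175273 to 66442583, plus strand, 16449 bp), the main dendritic MAP of brain neurons, had 6.86, 5.70 and 6.35 RPKM in female A, B and C, against 1.87, 6.14 and 7.50 RPKM in male A, C and D. Male A was far below the rest, and the other 5 libraries lay close together. With male A the mean of Map2 was 5.73 ± 1.99 RPKM with a CV of 34.8%, the highest of the 10 genes, and without it the CV was 10.6%. Map2 has 16 coding transcripts in GENCODE M21, including embryonic and adult forms, and counts per gene do not separate them.

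Of the migratory forms, Dcx and Dclk1 stood between by mean, while Dclk2 lay below both dendritic forms. Dcx (ENSMUSG00000031285, chromosome X, 143855842 to 143933311, minus strand, 12647 bp) had 41.0, 28.6 and 32.5 RPKM in female A, B and C, against 11.3, 28.9 and 34.9 RPKM in male A, C and D. Female A was highest and male A lowest, so the letter A held both ends of the range, and the mean was 29.6 ± 10.0 RPKM (SD, n = 6). The CV of Dcx was 33.9%, and 15.4% without male A. Dclk1 (ENSMUSG00000027797, chromosome 3, 55242526 to 55539064, plus strand, 12991 bp) had 32.9, 33.0 and 32.6 RPKM in female A, B and C, against 15.05, 22.4 and 33.3 RPKM in male A, C and D. The 3 females were nearly equal and the males were spread widely, with male D above every female. Dclk1 averaged 28.2 ± 7.71 RPKM, with a CV of 27.3%, and 15.3% without male A. Dclk2 (ENSMUSG00000028078, chromosome 3, 86786150 to 86920884, minus strand, 4047 bp), the second doublecortin-like kinase, had 3.49, 2.87 and 3.33 RPKM in female A, B and C, against 3.27, 3.50 and 3.47 RPKM in male A, C and D. It was the lowest gene of the family by mean, 3.32 ± 0.239 RPKM, below the median of 4.08 RPKM over genes tested, and also the steadiest, with a CV of 7.19%. The deposited length of Dclk2 is shorter than its longest coding transcript in GENCODE M21 (8042 bp), so its counts cover only part of that transcript. The same counts over the longer length give a lower RPKM, but the reads of the uncounted part are not known.

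Of the stabilising or general forms, Map4 (ENSMUSG00000032479, chromosome 9, 109931460 to 110083947, plus strand, 13780 bp) had 56.1, 54.6 and 48.5 RPKM in female A, B and C, against 41.4, 39.0 and 58.4 RPKM in male A, C and D. The females lay within the range of the males, and the mean of 49.7 ± 8.07 RPKM (SD, n = 6) made this widely expressed MAP the third of the family in 6 of 6 libraries. Map6 (ENSMUSG00000055407, chromosome 7, 99267447 to 99337137, plus strand, 6958 bp), the cold-stability MAP, had 20.5, 18.9 and 15.7 RPKM in female A, B and C, against 15.8, 19.2 and 19.3 RPKM in male A, C and D, with overlap and a CV of 10.9%. Map7 (ENSMUSG00000019996, chromosome 10, 20148471 to 20281589, plus strand, 4351 bp), the kinesin-1 recruiter, had 11.2, 8.77 and 10.7 RPKM in female A, B and C, against 5.97, 10.4 and 11.9 RPKM in male A, C and D. Male A was again lowest, and the other 5 libraries lay between 8.77 and 11.9 RPKM. The means were 18.2 ± 2.00 RPKM for Map6 and 9.82 ± 2.15 RPKM for Map7.

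**Figure D1:**
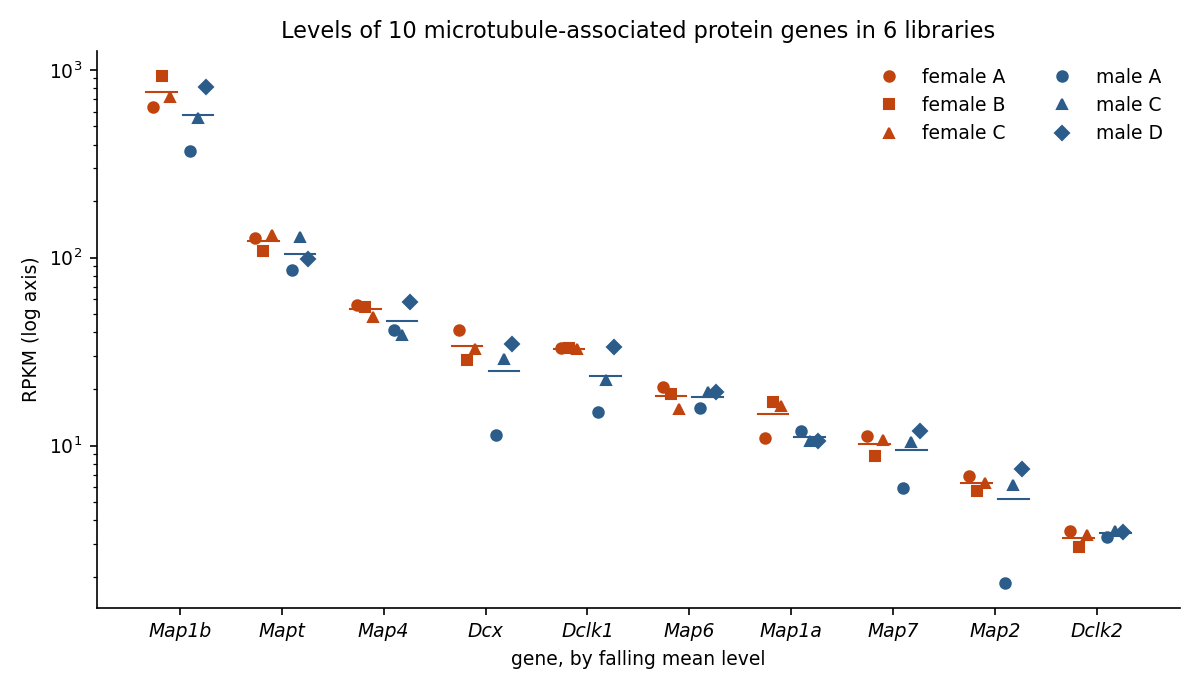
Level of each of the 10 genes (RPKM, log axis) in the 6 libraries, female libraries in orange left of male libraries in blue, with a bar at the mean of each sex (n = 3). Map1b, Mapt and Map4 keep places 1 to 3 in all 6 libraries, and male A is the lowest point of 6 genes, by the widest margin in Map2 (1.87 RPKM, against 5.70 to 7.50 RPKM).

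The means spanned a ratio of 201 between Map1b and Dclk2. Neighbours in the order were compared within each library, on the log2 scale of RPKM. Map1b exceeded Mapt by 2.52 ± 0.44 and Mapt exceeded Map4 by 1.19 ± 0.35 (SD, n = 6), both in 6 of 6 libraries and with ranges that did not overlap. Map4 exceeded Dcx by 0.83 ± 0.54 and Map7 exceeded Map2 by 0.86 ± 0.40, each in 6 of 6 libraries, although the ranges over libraries overlapped. Dcx and Dclk1 could not be put in order: the difference was 0.02 ± 0.30, and Dcx was higher in 3 of 6 libraries. Dclk1 exceeded Map6 by 0.58 ± 0.42 in 5 of 6 libraries and Map2 exceeded Dclk2 by 0.67 ± 0.73 in 5 of 6, male A being the exception in both. Map6 exceeded Map1a by 0.52 ± 0.42 in 5 of 6 libraries, all but female C, and Map1a exceeded Map7 by 0.40 ± 0.53 in 4 of 6. The order depends on the length used. With the longest coding transcript as length, Map1b (672 RPKM), Mapt (163 RPKM) and Map4 (112 RPKM) kept their places. Map2 moved up to 15.1 RPKM and above Map1a (13.3 RPKM), and Dclk2 fell to 1.67 RPKM, so that 5 of 10 genes kept their position. The counts of Dclk2 cover only part of the longer length, so its 1.67 RPKM is not comparable with the other levels.

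Within a library, RNA of the axonal form exceeded that of the dendritic form for both pairs. The log2 ratio of Map2 over Mapt in RPKM was -4.22, -4.24 and -4.38 in female A, B and C, against -5.52, -4.39 and -3.72 in male A, C and D. Its mean of -4.41 ± 0.60 corresponds to 21.3 times less Map2 than Mapt, and male A was lowest and male D highest. The ratio of Map1a over Map1b was -5.87, -5.76 and -5.47 in the females A, B and C, against -4.95, -5.71 and -6.25 in the males A, C and D, a mean of -5.67 ± 0.43 or 50.8 times less Map1a. Here male A was highest, the opposite of its place for Map2 over Mapt. Without male A the 2 means were -4.19 ± 0.28 and -5.81 ± 0.28 (n = 5).

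Dcx, the migratory form, stood 4.07 times below Mapt, with a log2 ratio of -2.03 ± 0.50 that was negative in every library and lowest in male A (-2.92). Dclk1 and Dcx were at par by mean, -0.02 ± 0.30, with single libraries between -0.37 and 0.41. Dclk2 stood 8.18 times below Dclk1, with a log2 ratio of -3.03 ± 0.49. Map4 stood 2.28 times below Mapt, with -1.19 ± 0.35. These ratios move with the length used: with the longest coding transcript, Map2 over Mapt was -3.54, Dclk2 over Dclk1 -4.73 and Map4 over Mapt -0.53. The value of -4.73 divides Dclk2 counts taken over 4047 bp by 8042 bp, so it is no like measure. In the summed RPKM of the 10 genes, the axonal forms held 80.7%, 85.9% and 83.7% in female A, B and C, against 81.0%, 83.0% and 83.5% in male A, C and D. This share varied little between libraries and averaged 83.0 ± 1.91% (SD, n = 6). The dendritic forms held 2.03 ± 0.28%, the migratory forms 6.46 ± 1.07% and the stabilising or general forms 8.54 ± 1.56%. Map1b dominates these shares: without it the axonal form, then Mapt alone, held 42.0 ± 4.46%, the dendritic forms 6.91 ± 0.93%, the migratory forms 22.1 ± 3.77% and the general forms 28.9 ± 3.29%.

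**Figure D2:**
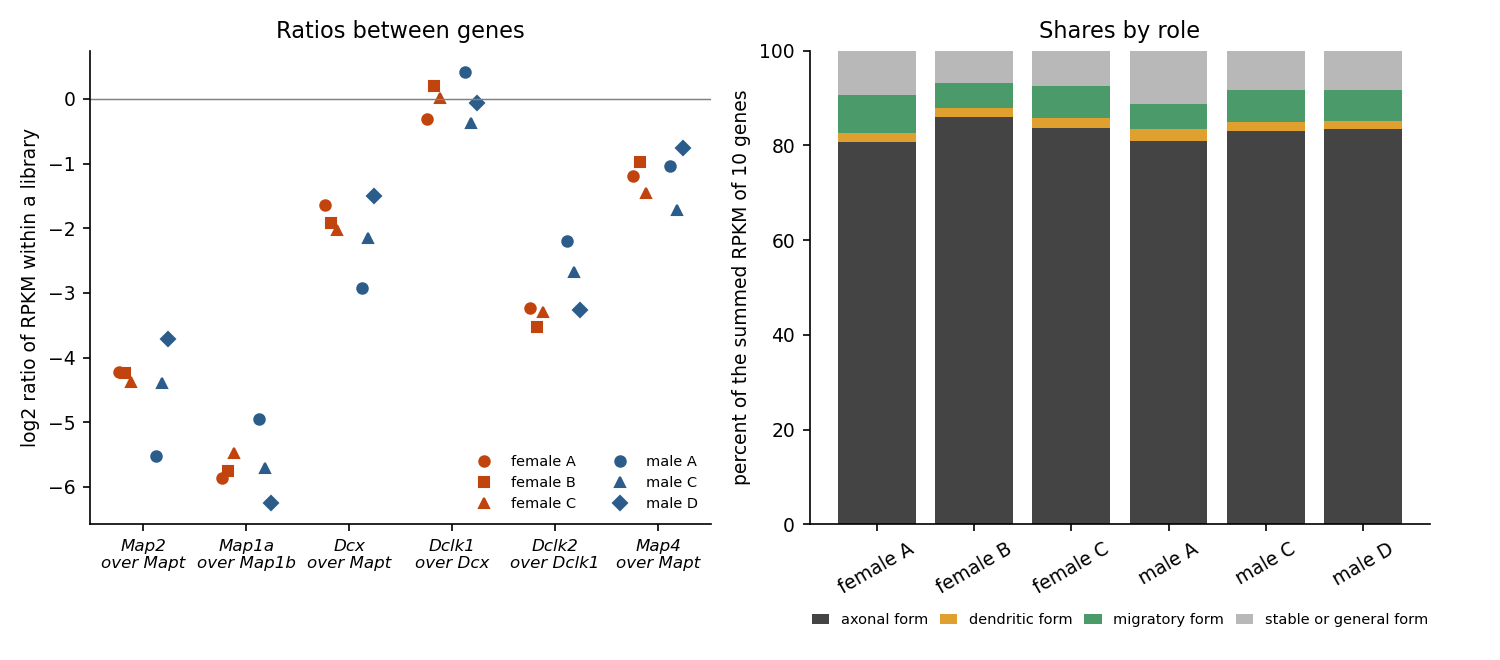
Left, log2 ratios of RPKM between genes within each library, female libraries (orange) left of male libraries (blue); right, the share (%) of each role in the summed RPKM of the 10 genes per library. Map2 over Mapt and Map1a over Map1b are below 0 in all 6 libraries, and the axonal forms hold 80.7% to 85.9%.

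Male A was the lowest library for 6 of the 10 genes. As a percentage of the mean of the other 5 libraries, Map2 was at 28.7%, Dcx at 34.1%, Dclk1 at 48.8%, Map1b at 50.9%, Map7 at 56.4% and Mapt at 71.8% in male A. The 4 others were nearer to the rest, with Map4 at 80.8%, Map6 at 84.6%, Map1a at 91.6% and Dclk2 at 98.1%. The low values did not follow the roles, since of the dendritic pair Map2 was the lowest of the 10 and Map1a was within the range of the other libraries. Male A also differed from the other libraries with exon length. On log2 (CPM + 0.5) relative to the mean of the 6 libraries, the median gene stood at 0.10 in male A for 3250 genes under 2 kb, 0.11 for 5028 genes of 2 to 4 kb, -0.08 for 4941 genes of 4 to 8 kb and -0.41 for 1739 genes of 8 kb and over. In the other 5 libraries the median of the longest class lay between -0.05 and 0.22. Of the 6 MAP genes in that class, Map2 stood at -1.48 in male A, with 1.38% of the 1739 genes lower, and Dcx at -1.28, with 5.23% lower. Dclk1 at -0.85 and Map1b at -0.79 had 20.9% and 23.6% of those genes lower, Map4 at -0.24 had 62.2% and Map1a at -0.08 had 72.5%. Map7 is shorter (4351 bp) and stood at -0.67. The summed markers of glia and fibroblasts given above were highest in the same library, though Fabp7 and Dcn by themselves were not. The part of either exon length or cell makeup in the low MAP levels was not tested.

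**Figure D3:**
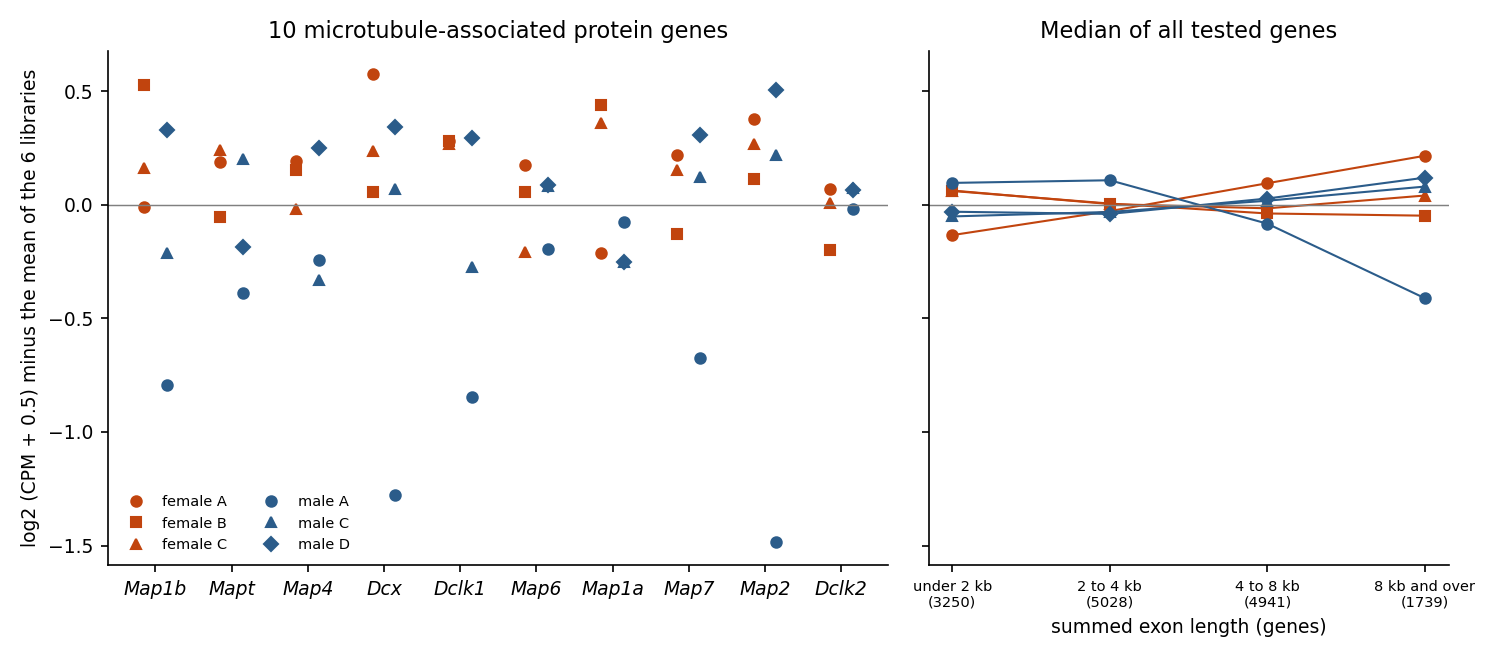
Left, deviation of each of the 10 genes from its mean over the 6 libraries (log2 of CPM + 0.5), female libraries left of male libraries; right, the median deviation of all tested genes by class of summed exon length, with the number of genes in parentheses. Male A is lowest for Map2 (-1.48) and Dcx (-1.28) and is the library whose median falls to -0.41 in genes of 8 kb and over.

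Sex is the contrast named by the series title. No MAP gene was called between female and male libraries. By edgeR's quasi-likelihood test with Benjamini-Hochberg adjustment over all genes, 0 of 10 were called at an adjusted p of 0.05 and 0 of 10 had an unadjusted p under 0.05, while 4 of 14958 genes (0.0267%) were called and 661 (4.42%) had such a p. DESeq2 and limma voom also called 0 of 10. The female and male ranges of all 10 genes overlapped over the 6 libraries, whereas 1206 of the tested genes (8.06%) had ranges apart. For some genes the overlap rested on 1 library. Without male A, Map1a was at 10.9 to 17.2 RPKM in females, against 10.6 RPKM in males C and D. Without male C, Mapt was at 108 to 132 RPKM in females, against 85.5 and 98.7 RPKM in males A and D. Without male D, the ranges of Map1b, Dclk1 and Map4 were apart. Without female A, Map1a was at 17.2 and 16.2 RPKM in females B and C, against 10.6 to 12.0 RPKM in males. Ranges of fewer libraries come apart more readily. The share of all genes apart in these smaller sets was not computed, so nothing is read from these cases. The fitted log2 change, female minus male, was highest for Dclk1 (0.48, SE 0.27, adjusted p 0.961 by edgeR), the X-linked Dcx (0.44, SE 0.37, adjusted p 0.966) and Map1a (0.41, SE 0.22, adjusted p 0.961). The value of Map1a turned to -0.02 with record set as a term and also in record set 1 only. Both settings set female A alone against the males, so they are no separate checks. Map1b was at 0.40 (SE 0.28), Map2 at 0.29 (SE 0.42), Mapt at 0.23 (SE 0.21) and Map4 at 0.20 (SE 0.21). Map7 at 0.11 (SE 0.27), Map6 at 0.02 (SE 0.20) and Dclk2 at -0.08 (SE 0.22) were nearest to 0.

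The fitted changes of 9 of 10 genes were positive, with a median of 0.26 against -0.00 over all genes tested. In the same contrast no cell type marker was called: 11 of 12 neuron markers were higher in females with a median of 0.23, while the medians were -0.92 for markers of glia, -1.19 for those of fibroblasts and -1.07 for those of vessels. These medians include male A. In males C and D glial markers summed to 2004 and 2056 CPM, against 1775 to 2216 CPM in females. Fibroblast markers summed to 576 and 605 CPM in males C and D, against 598 to 678 CPM in females. Vessel markers summed to 71.8 and 83.0 CPM, against 43.5 to 78.2 CPM. The part of these markers in the values of the MAP genes was not tested. The count of 9 positive MAP genes rested on male A. Without this library 6 of 10 were positive. Map2 then stood at -0.11, Map7 at -0.13 and Map6 at -0.07, and Dcx was at 0.09, Map1b at 0.16 and Dclk1 at 0.24. Map1b was also at 0.14 with record set as a term and in record set 1 only, where female A alone stands against the males. Without male C, the male library with Xist, 9 of 10 were positive and the fitted changes ran from -0.06 for Dclk2 to 0.56 for Dcx. Without male D, Dclk1 stood at 0.81 and Map1b at 0.72, with adjusted p of 0.285 and 0.352 by edgeR. No gene of the family was called on leaving out any 1 library. With plain library totals in place of TMM, the median log2 change over the genes tested was -0.12, and 8 of 10 MAP genes were positive.

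Record set 2 holds only female libraries, so with sex as a term its effect rests on female B and female C against female A alone, and that lone library is assumed to vary like the other groups. In this fit 0 of 10 genes were called by edgeR and 0 of 10 had an unadjusted p under 0.05, with 0 of 14958 genes (0%) called and 483 (3.23%) under an unadjusted p of 0.05. Map1a had the largest fitted change, record set 2 minus record set 1, at 0.61 (SE 0.27, unadjusted p 0.0552, adjusted p 1.00). Its levels were 17.2 and 16.2 RPKM in female B and female C, against 10.9 RPKM in female A. By edgeR, Dcx was at -0.43 (SE 0.57) and Map1b at 0.37 (SE 0.43), and the other 7 lay between -0.25 and -0.01. With DESeq2 the fitted change of Map1a was 0.63. The male libraries inform the spread and not the record set effect, so fits without one of them are no check on it. Record set 2 holds libraries of 1 embryo each, so that record form and embryos per pool cannot be told apart.

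**Figure D4:**
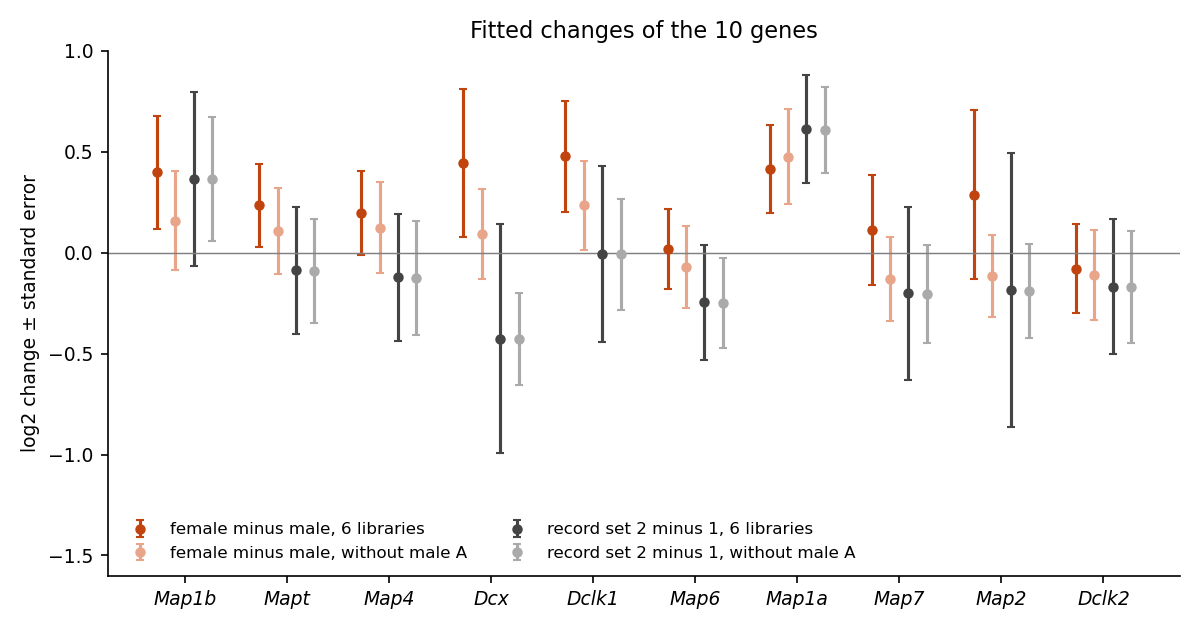
Fitted log2 change ± standard error of each gene by edgeR, female minus male and record set 2 minus record set 1, each over 6 libraries (dark) and without male A (light). No gene was called in either contrast; 9 of 10 female minus male values are above 0 over 6 libraries and 6 of 10 without male A.

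Other microtubule genes were read from the same fit to set the family beside its surroundings, and none of their lists had a called gene. Of 14 tested paralogues and further lattice binders, 8 were higher and 6 lower in female libraries, with a median log2 change of 0.04. Tppp3, a tubulin polymerisation promoter, was highest at 512 ± 60.5 RPKM, and Map1lc3b, which is better known for autophagy, had 149 ± 16.1 RPKM (SD, n = 6), both above Mapt by mean. Of 15 plus-end, minus-end and cross-linking proteins, 11 were higher and 4 lower, median 0.09. Mapre2, an end-binding protein, led with 95.2 ± 7.56 RPKM. Clasp2, which stabilises growing ends, had 77.1, 98.4 and 88.5 RPKM in female A, B and C, against 23.0, 60.5 and 70.2 RPKM in male A, C and D. Every female exceeded every male there, but the fitted change of 0.78 (SE 0.36) had an adjusted p of 0.961 by edgeR. Of 11 kinases known to phosphorylate MAPs and activators of such kinases, 7 were higher and 4 lower, median 0.06. Gsk3b, a kinase of tau and Map1b, had 158, 284 and 251 RPKM in female A, B and C, against 89.5, 91.2 and 172 RPKM in male A, C and D, and its change of 0.98 (SE 0.31) had an unadjusted p of 0.0120 and an adjusted p of 0.961. Its female and male libraries overlapped, since male D exceeded female A. Cdk5, another tau kinase, was steady at 90.8 ± 10.6 RPKM.

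Of 7 tested severing enzymes and partners, 3 were higher and 4 lower in females, with Spast at 14.9 ± 4.91 RPKM. Of 10 spindle MAPs of dividing cells, 1 was higher and 9 lower in females, with a median of -0.55 and none called. These were all highest in male A, where their summed level was 254 CPM, against 102 to 124 CPM in the other 5 libraries, and Ckap2 (7.13 ± 1.35 RPKM) and Prc1 (4.89 ± 2.18 RPKM) led them. The spindle genes and 6 of the 10 MAP genes thus stood at opposite ends in the same library, and the part of dividing cells in either was not tested.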

How the data were processed

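RNA-seq libraries of EGFP-positive sorted cells were made, per the labels' protocols, from 10 ng of total RNA with a SMARTer ultra low input kit, without molecular identifiers. Per the submitters' processing notes, featureCounts 1.4.5 and Subread, for which those notes name no version, were used on GRCm38.p2. How strand and multi-mapping reads were treated in counting is likewise not given in the sources used. The authors deposited raw counts per Ensembl gene. The deposited CPM values were recomputed from these counts with a largest difference of 4.5e-11, and the deposited RPKM values from counts and summed exon length with a largest difference of 6.4e-12, under a tolerance of 1e-06. Counts and lengths alone were used further.

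Female and male libraries were compared with edgeR 4.0.16 in R 4.3.3 (quasi-likelihood F-test, TMM, filterByExpr on sex, Benjamini-Hochberg over 14958 genes, threshold 0.05; effects are female minus male), and record sets likewise with sex as a term. All 10 genes passed the filter, the TMM factors were 0.922 to 1.08 and the biological coefficient of variation was 31.1%. Replicates are different embryos. No pair of libraries agreed within sampling noise (chi-square per gene at least 17.9). DESeq2 1.42.0, limma 3.58.1 (voom), other filters, scalings and lengths, left-out libraries, a replicate block and record set 1 alone were alternatives. Named genes were all 10 members, the 2 highest of each other list and any called; Xist, Csf1r and C1qa are outside this rule. Some genes and sequences are not reported here. Near-identical copies were searched with blastn 2.17.0 (95% over 150 bp); only the stretch shared by Map1a and Ppip5k1 was found. The members and lists were chosen with earlier results of these data known.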

Additional observations from a re-analysis of the deposited data

Results flagged for a closer look

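Of 20 values examined for a library far from the other 5 (levels, ratios and shares), 3 had one whose gap to its nearest neighbour was past the 95% critical share of the whole range in Dixon's test; chance gives about 1 in 20. Map2 stood at 1.87 RPKM in male A, against 5.70 to 7.50 RPKM in the other 5 libraries, with a gap of 0.681 of the range. The log2 ratio of Map2 over Mapt was -5.52 in male A, against -4.39 to -3.72 in the others, with a gap of 0.626, and shares its Map2 value with the first. Dclk2 stood at 2.87 RPKM in female B, against 3.27 to 3.50 RPKM in the others, with a gap of 0.633, and this rests on 210 counts.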

How the results depend on the processing

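No MAP gene was called under any alternative run, while the count of all genes called did vary. Between female and male libraries 4 genes were called. The count was 14 without a low-count filter, 13 with DESeq2 and 1 with limma voom. On leaving out 1 library it was 0 to 5, the 0 being without female A. Record set as a term and record set 1 only both set female A alone against the males, so no count is given for them. With the replicate letter as a replicate block the count was 77. In that edgeR fit 4 of the 10 genes had an unadjusted p under 0.05, as had 1019 of 14958 genes, and none of the 10 was called. Only the letters A and C occur in both sexes, so the sex effect of the block fit rests on these letters alone, 1 of them with male A. The deviations of libraries of the same letter had correlations of -0.08 and 0.05. So few pairs cannot tell whether a letter stands for a shared preparation. Between record sets 0 genes were called, 3 without a sex term and 13 with DESeq2; the fit without female A was not run, since sex and record set then coincide.

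With the longest coding transcript as length, the shares became 75.6% axonal, 2.59% dendritic, 7.99% migratory and 13.8% stabilising or general. The log2 ratios became -4.73 for Dclk2 over Dclk1, -3.54 for Map2 over Mapt and -0.53 for Map4 over Mapt, and 5 genes kept their position. For Dclk2 the counts cover only part of that length, as said above. Of the fitted changes of single genes under alternatives, 200 kept their sign and 20 changed it. In record set 2 minus record set 1, without a sex term Dclk1 was at 0.34, Dcx at 0.0720, Map2 at 0.11, Map4 at 0.0814 and Mapt at 0.13, and Dclk1 was at 0.00986 with DESeq2. On leaving out 1 library, Dclk1 ran from -0.0121 to 0.00469 and Mapt from -0.24 to 0.0537. In female minus male, Dclk2 was at 0.0107 with the replicate block, 0.0308 with record set as a term and 0.0291 in record set 1 only, Map1a at -0.0206 with record set as a term and -0.0218 in record set 1 only, and Map6 at -0.0893 with plain library totals. On leaving out 1 library, Map2 ran from -0.11 to 0.65, Map6 from -0.0698 to 0.12 and Map7 from -0.13 to 0.31. The cause of these changes was not tested. Each of the 10 genes had at least 210 counts in every library.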
